A study of Mus musculus with 3 samples.

Results

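The mouse HoxC cluster holds 9 homeobox genes on chromosome 15: Hoxc4, Hoxc5, Hoxc6, Hoxc8, Hoxc9, Hoxc10, Hoxc11, Hoxc12 and Hoxc13. It was examined for where along its length chromatin was accessible in forelimb mesenchymal progenitors (MPs), and for whether that limit moved between embryonic day (E) 12.5 and E16.5. Its peaks were those that overlapped the body of a listed gene or the 2000 bp upstream of it in mm10. This gave 32 of 190443 called peaks in the E12.5 library, 18 of 102459 in the E14.5 library and 30 of 213613 in the E16.5 library. The annotated body of Hoxc5 reaches from within Hoxc10 (chr15:102967443-103017429), and with coding gene models the rule gave 22, 14 and 17 peaks. The whole interval from 2000 bp upstream of Hoxc13 to the end of Hoxc4 (chr15:102919103-103036852, 118 kb), gaps between genes included, held 39, 21 and 39 peaks. By peak calls, no limit of accessibility was found inside the cluster at any stage. The promoter window reached from 1000 bp upstream to 100 bp downstream of the start of a coding gene model. A called peak overlapped that of all 9 genes in all 3 libraries by at least 1 bp, beside 70.8%, 66.9% and 71.9% of 21840 genes. The start itself lay in a peak for 9, 7 and 9 genes in the order of the stages, beside 68%, 64.9% and 69.2% of all genes. In the E14.5 library the peaks at Hoxc11 and Hoxc12 met only 99 and 15 bp of the 1101-bp window and held neither start. The densest HoxC peak of the E12.5 library lay at Hoxc13, the most posterior gene. The peak calls thus did not bear out a cluster open at its anterior genes and closed at all posterior ones. Such calls set a low bar. The promoters of the hindlimb genes Tbx4 and Pitx1 and of the muscle gene Pax7 were also called in every library.

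The assay was single-nucleus ATAC-seq, in which a transposase cuts and tags accessible DNA, with 1 library per stage and 8294 (E12.5), 20023 (E14.5) and 14048 (E16.5) nuclei. The nuclei came from tdTomato-positive MPs of Hic1CreERT2/CreERT2;Rosa26LSLtdTomato/tdTomato mice on C57BL/6J, sorted by FACS. Tamoxifen (7.5 mg, by gavage) had been given at day 10, so cells that then expressed Hic1, and their descendants, carried the reporter. The sort had removed cells that stained for haematopoietic or endothelial surface proteins (CD45, CD117, CD31, CD11b, F4/80, Ter119). Every group was homozygous for driver and reporter, limbs were pooled, and no group without Cre was measured. The 2 earlier libraries were made from whole forelimbs, and the E16.5 library from distal stylopod and proximal zeugopod. The E12.5 tissue was digested with other enzymes than the later ones, the E16.5 files came from another pipeline version, and depth rose with stage. Stage cannot be told apart from these. Without replicates no test was run, and the 95% intervals below cover counting error only. Where no stage is named, values are in the order E12.5, E14.5, E16.5.

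Hox genes encode homeodomain transcription factors that give cells their position along the body and limb axes. Within a cluster the genes lie in the order in which they are used, from anterior and early to posterior and late. The posterior members (here Hoxc9 to Hoxc13) are related to the fly gene Abd-B, and in limbs the posterior genes of HoxA and HoxD are the best known patterning genes, while HoxC genes of this class are known from the hindlimb and trunk. The anterior members are Hoxc4, Hoxc5, Hoxc6 and Hoxc8. For counting, the cluster was divided 2000 bp upstream of Hoxc8, which no peak crossed. The anterior part then spanned 48.2 kb and the posterior part 69.5 kb.

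Deposited counts totalled 87048167, 204289151 and 413425059, with a median of 6004, 8575 and 26694 per nucleus. Peaks are those of each library's own list, and called bases made up 41.9%, 17.6% and 54.6% of the HoxC interval. Levels are given as CPM, counts scaled to a total of 1000000 in autosomal regions with a peak in every library. Regions were merged from the 3 peak lists, and levels per kb of called width are given beside the main ones, since widths differed between libraries. A sum over nuclei cannot tell fewer open nuclei from less signal in each. Promoters of the 5 forelimb mesenchyme markers (Prrx1, Tbx5, Twist1, Hic1, Pdgfra) had a peak in every library, summed at 470 to 519 CPM, but so had the hindlimb genes Tbx4 and Pitx1, summed at 29.05 to 66.96 CPM. None of 3 blood markers (Ptprc, Spi1, Gata1) had one. Summed promoter levels ran from 32.2 to 40.02 CPM for 3 endothelial markers, most of it at Kdr (30.4, 40.02 and 26.1 CPM). Pecam1 and Cdh5 were uncalled in the E14.5 library and Pecam1 in the E16.5 library. For 3 muscle markers the sums ran from 6.69 to 30.03 CPM. Pax7 was called in every library (13.4, 6.69 and 14.1 CPM), Myod1 in the E12.5 library only and Myf5 not in the E14.5 library. For 4 epithelial markers the sums ran from 18.995 to 34.2 CPM. Of these Krt14 was called in the E16.5 library only and Krt5 not in the E14.5 library. Their part in the results was not tested. Pairs of libraries shared 151 to 401 barcodes, at most 2.57% of the first of the pair.

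Sequence is shown for 3 accessible places without exons on which the account turns. They are the gap next to which the cluster was divided, a gap deep in the posterior part, and the distal start area of Hoxc6, which had the second highest level of the anterior part. Each is the middle 300 bases of the E14.5 peak, on the plus strand of the RefSeq copy of GRCm38.p6 (mm10). Capitals mark the motif matches described after them.
Between Hoxc9 and Hoxc8, chr15:102987436-102987735: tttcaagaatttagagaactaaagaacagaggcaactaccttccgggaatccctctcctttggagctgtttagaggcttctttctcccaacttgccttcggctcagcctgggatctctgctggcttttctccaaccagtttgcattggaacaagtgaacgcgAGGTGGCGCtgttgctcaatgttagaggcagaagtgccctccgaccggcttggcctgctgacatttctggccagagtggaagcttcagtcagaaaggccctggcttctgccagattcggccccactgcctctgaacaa
Between Hoxc12 and Hotair, chr15:102943022-102943321: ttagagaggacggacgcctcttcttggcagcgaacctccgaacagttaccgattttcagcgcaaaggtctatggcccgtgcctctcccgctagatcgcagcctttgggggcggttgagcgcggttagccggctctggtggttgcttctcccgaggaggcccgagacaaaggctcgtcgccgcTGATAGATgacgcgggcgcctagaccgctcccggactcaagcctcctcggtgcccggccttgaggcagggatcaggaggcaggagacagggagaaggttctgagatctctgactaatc
Distal start area of Hoxc6, chr15:102999352-102999651: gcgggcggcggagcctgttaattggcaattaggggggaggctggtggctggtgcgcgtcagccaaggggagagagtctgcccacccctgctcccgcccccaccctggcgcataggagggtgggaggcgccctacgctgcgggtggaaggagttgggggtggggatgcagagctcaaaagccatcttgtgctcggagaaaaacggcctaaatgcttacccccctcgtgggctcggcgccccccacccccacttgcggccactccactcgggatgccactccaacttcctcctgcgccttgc
The first window held 8 CpG dinucleotides at a GC content of 52.7%, the second 25 at 61.7% and the Hoxc6 window 18 at 66.7%. In 77332 windows of this length from E14.5 peaks in common autosomal regions the medians were 5 and 49.3%. Both strands were searched for the CTCF core (the motif of an insulator factor), TGATNNAT (Pbx with Hox), TGACAG (Meis and Pknox) and TTTATNG (posterior Hox). AGNNGGCGC, which ends the CTCF core and overlaps it, was added after the sequences had been seen. The window between Hoxc9 and Hoxc8 held 1 match to AGNNGGCGC, present in 6.03% of all windows. It was not alone in this. Of the 6 HoxC windows without exons, the one between Hoxc11 and Hoxc10, not shown, also held 1 match. The window beside Hotair held 1 match to TGATNNAT, present in 10.4%. The Hoxc6 window held none of the 5 motifs. The CTCF core (4.06% of all windows), TGACAG (19.98%) and TTTATNG (14.8%) matched none of the 3. A match is one of letters and not a shown binding site.

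Along the cluster, accessibility rose and fell with the genes and did not stop. Merging gave 38 regions, 15 anterior and 23 posterior. The E12.5 library had a peak in 11 anterior and 19 posterior regions, the E14.5 library in 6 and 10, and the E16.5 library in all. All 16 regions of the E14.5 library were also called in the others, and 8 of them held the promoters. In steps of 10 kb from the end of Hoxc4, the step from 20 to 30 kb, with Hoxc5 and the proximal start of Hoxc6, was the densest in each library (3.58, 3.51 and 4.97 CPM per kb). The step from 110 to 120 kb, with the Hoxc13 promoter, came second in the E12.5 library at 3.20 CPM per kb, and held 1.55 and 2.24 CPM per kb later. The step from 10 to 20 kb, around the distal start of Hoxc4, was the lowest (0.34 CPM per kb, no peak, and 0.88 CPM per kb). The posterior steps between 60 and 110 kb held 1.22 to 1.99 CPM per kb in the E12.5 library, 0.33 to 0.77 in the E14.5 library and 1.21 to 2.23 in the E16.5 library. Each of these steps had a peak in every library.

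**Figure D1:**
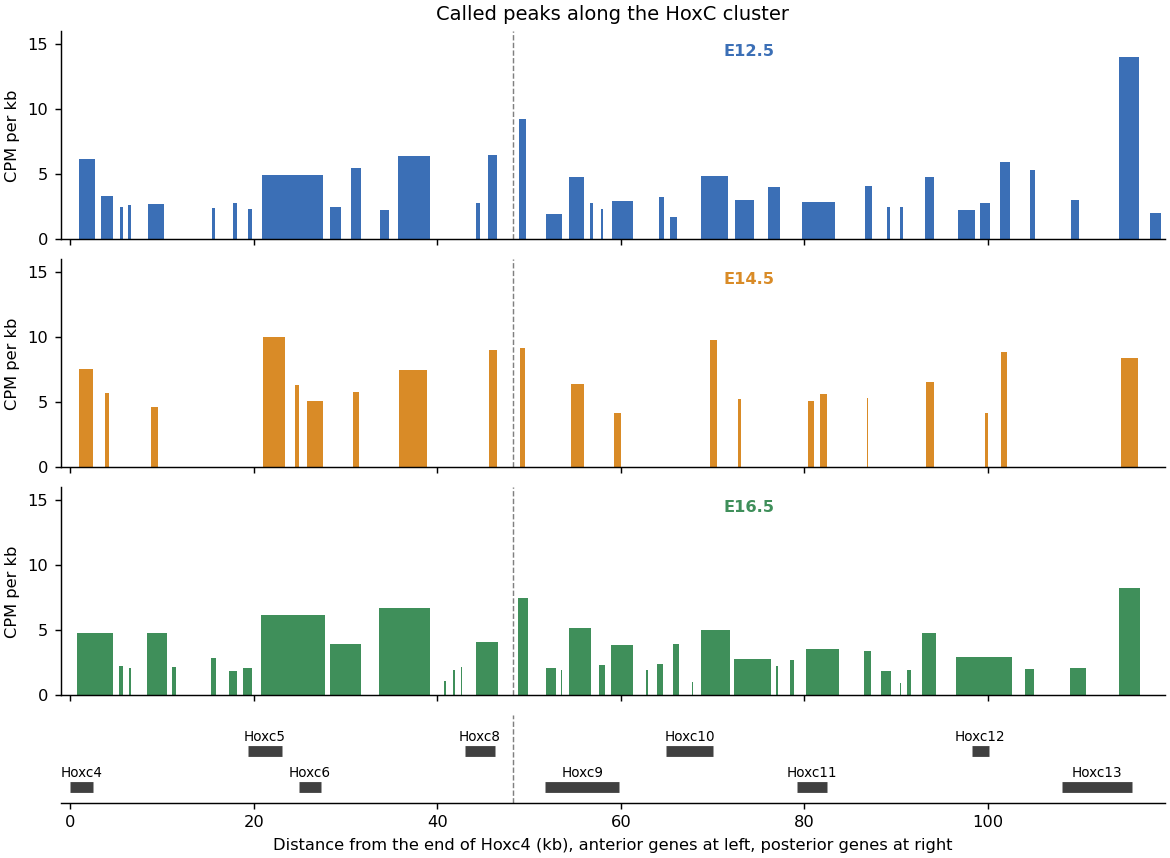
Called peaks of each library along the HoxC cluster, with distance from the end of Hoxc4 (kb, x axis) and density (CPM per kb of called width, y axis). The dashed line divides anterior from posterior at 48.2 kb, and bars stand along the whole cluster in all 3 libraries.

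Beyond Hoxc13 the density dropped. In the 50 kb past Hoxc13 it was 0.27, 0.08 and 0.43 CPM per kb, against 1.89, 1.27 and 2.36 CPM per kb over the cluster. In the 50 kb past Hoxc4 it was 0.94, 0.75 and 1.12 CPM per kb. The step from 130 to 140 kb, past Hoxc13, held no peak in any library. The steps beside it did hold peaks. From 120 to 130 kb there were 0.73, 0.38 and 0.74 CPM per kb. From 140 to 150 kb there were 0.23 CPM per kb, no peak, and 1.11 CPM per kb. Among the flanking genes, the promoters of Cbx5, a heterochromatin protein, held 121, 118 and 108 CPM. Those of Hnrnpa1, an RNA-binding protein, held 86.5, 89.4 and 81.03 CPM, and the 2 genes share a peak. Calcoco1, on the far side of Hoxc13, held 49.1, 47.6 and 36.8 CPM. Smug1, a DNA repair enzyme, held 25.6, 22.6 and 32.9 CPM, within the range of HoxC promoter regions.

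As a measure of the edge, the point was taken past which 5% of the cluster's counts still lay on the way from Hoxc4 to Hoxc13. It lay 115.6, 115.4 and 114.9 kb from the end of Hoxc4, in each case inside the Hoxc13 promoter peak. That peak alone held 13.3%, 10.4% and 7.02% of HoxC counts, so the 5% point could hardly lie elsewhere and shows no more than that this peak was called. The 10% point lay at 114.8, 114.5 and 101.8 kb, the last within the Hoxc12 promoter region. The middle of the distribution differed more. The point by which 50% of counts had been passed lay at 54.7 kb in the E12.5 library, within Hoxc9. It lay at 38.3 kb in the E14.5 library, near the distal start of Hoxc6, and at 46.01 kb in the E16.5 library, within Hoxc8. The 75% point kept this order, at 87.2, 72.9 and 78.7 kb. By called width the 50% points were 55.04, 38.3 and 55.8 kb, so the E14.5 library also stood apart in how much of the posterior part was called.

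**Figure D2:**
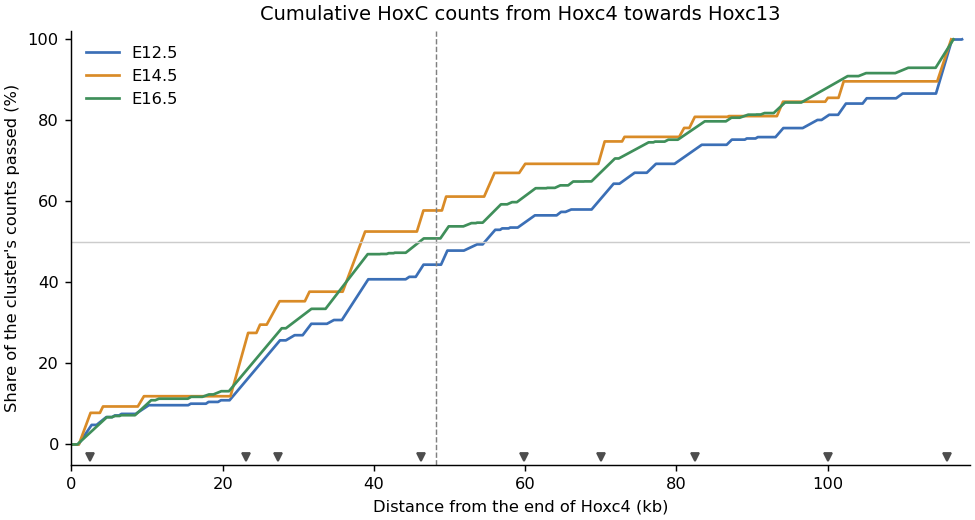
Share of HoxC counts passed (%, y axis) against distance from the end of Hoxc4 (kb, x axis), 1 line per library. The E14.5 library passes 50% at 38.3 kb, against 54.7 kb and 46.01 kb for the others, and all 3 lines make their last step at the Hoxc13 promoter.

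The posterior part held 55.6% of HoxC counts in the E12.5 library (54.6% to 56.7%), 42.2% in the E14.5 library (41.5% to 43.01%) and 49.1% in the E16.5 library (48.7% to 49.6%). These intervals did not overlap. Over only the positions called in every library the shares were 47.8%, 42.2% and 41.1%, so there E16.5 no longer stood above E14.5. In HoxC these positions were exactly the E14.5 calls (11733 bp anterior, 9002 bp posterior), so the E14.5 share could not change. Wider peaks of the other libraries were cut to them, with counts spread evenly over each peak. Per kb of called width the shares were 49.01%, 48.8% and 43.2%, so the drop to E14.5 was gone. Without the Hoxc13 promoter region they were 48.8%, 35.6% and 45.3%. In levels, the posterior part held 124 CPM (121 to 128), 63.2 CPM (61.7 to 64.7) and 137 CPM (135 to 138). The anterior part held 99.02 CPM (95.9 to 102.2), 86.4 CPM (84.6 to 88.2) and 141 CPM (140 to 143). The E14.5 library was the lowest for both parts, and the posterior part was further below its E12.5 level. The log2 ratio of E14.5 over E12.5 was -0.97 for the posterior part (-1.03 to -0.92) and -0.20 for the anterior part (-0.25 to -0.14). For E16.5 over E14.5 it was 1.11 (1.07 to 1.15) and 0.71 (0.68 to 0.75). Per kb of called width these signs turned, to 0.66 and 0.67 for the first step and to -0.89 and -0.56 for the second. The direction of a level between stages thus depended on whether called width was counted.

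The same turn ran through the 16 common HoxC regions. For E14.5 over E12.5, 2 of 16 were higher (median log2 -0.55), beside 42.3% of 82714 common regions (median -0.18). Per kb of called width 14 of 16 were higher (median 0.54), beside 76.0% (median 0.39). For E16.5 over E14.5, 16 of 16 were higher (median 0.76), beside 56.8% (median 0.15), and per kb 1 of 16 (median -0.49), beside 13.9% (median -0.55). At least 2-fold lower at E14.5 than at E12.5 were 4 HoxC regions (background 20.5%), and 0 were 2-fold higher (background 10.5%). For E16.5 over E14.5, 6 were at least 2-fold higher (background 19.8%) and 0 lower (background 6.91%). For E16.5 over E12.5, 1 was higher (background 18.4%) and 0 lower (background 16.4%). The 4 that were lower at E14.5 were the Hoxc9 promoter region, a place between Hotair and Hoxc11, a place between Hoxc11 and Hoxc10, and one between the distal and proximal starts of Hoxc6. Each had a narrower call there, and each was higher per kb. Counted per kb of called width the directions were opposite. For E14.5 over E12.5, 2 regions (the Hoxc12 and Hoxc10 promoter regions, at 1.12 and 1.004) were at least 2-fold higher (background 13.2%) and 0 lower (background 1.04%). For E16.5 over E14.5, 2 (the Hoxc12 and Hoxc8 promoter regions, at -1.31 and -1.13) were at least 2-fold lower (background 17.3%) and 0 higher (background 0.683%). For E16.5 over E12.5, 0 were higher (background 6.56%) and 0 lower (background 10.4%).

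The Hoxc13 promoter region (chr15:102920233-102922590) held 29.8 CPM (28.04 to 31.6), 15.5 CPM (14.7 to 16.3) and 19.5 CPM (18.9 to 20.2). Hoxc13, known for its role in hair and nails, was the only promoter region with its highest level in the E12.5 library, and the intervals did not overlap. The log2 ratio was -0.94 for E14.5 over E12.5 (-1.05 to -0.83) and -0.61 for E16.5 over E12.5 (-0.71 to -0.51). Its peak was 2124, 1847 and 2358 bp wide, and per kb of called width the ratios were -0.74 and -0.76. For the first step it was the only promoter region lower per kb. Among the 82714 common regions the first ratio lay at the 22.03 percentile, and per kb of called width at the 2.498 percentile. For E16.5 over E12.5 the percentiles were 25.1 and 17.07.

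Hoxc12 and Hoxc11 are posterior genes best known from hindlimb and trunk. The Hoxc12 promoter region held 13.5, 7.51 and 18.1 CPM over called widths of 4013, 1025 and 6136 bp, or 3.36, 7.33 and 2.95 CPM per kb. Of this, the peaks that met the Hoxc12 promoter window held 2.84, 1.43 and 18.1 CPM. In the E12.5 and E14.5 libraries that was less than at the Hoxc9 promoter window (6.71 and 3.36 CPM). The Hoxc11 region held 10.5, 7.39 and 12.6 CPM, or 2.91, 5.40 and 3.54 CPM per kb. Hotair is a long non-coding RNA read from the opposite strand. The region over its start held 0.63 CPM in the E12.5 library and 2.09 CPM in the E16.5 library and was not called in the E14.5 library. Its called width was 255 and 1120 bp, so its density was 2.49 and 1.87 CPM per kb. The gap between Hoxc12 and Hotair, whose sequence is given above, was called throughout, at 4.97, 5.32 and 7.25 CPM, or 4.81, 6.55 and 4.83 CPM per kb. The Hoxc10 promoter region, which also holds the far upstream start of a long Hoxc5 transcript, held 14.2, 8.27 and 15.7 CPM, or 4.87, 9.77 and 5.06 CPM per kb. The Hoxc9 promoter region had the lowest level of the 8 merged regions, though not of the peaks at promoter windows. It held 6.71 CPM (5.91 to 7.59), 3.36 CPM (3.03 to 3.70) and 9.56 CPM (9.10 to 10.03), with intervals that overlapped those of Hoxc8 in the E12.5 and E16.5 libraries. Its density was 2.96, 4.20 and 3.85 CPM per kb. A second Hoxc9 region, over an exon, held 8.80, 8.74 and 12.6 CPM, or 4.53, 6.38 and 5.21 CPM per kb. In the 4 promoter regions from Hoxc9 to Hoxc12 the E14.5 library was lowest and the E16.5 library highest in CPM, and per kb of called width the E14.5 library was the highest in all 4.

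The gap between Hoxc9 and Hoxc8, on the posterior side of the division, had a density of 9.22, 9.18 and 7.52 CPM per kb over called widths of 841, 559 and 1101 bp. It was the second densest HoxC region in each library. Its level was 7.75, 5.13 and 8.28 CPM.

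Anterior promoters lay closer together at the first 2 stages. Hoxc8, which patterns thoracic segments, held 8.05 CPM (7.18 to 9.01), 7.78 CPM (7.25 to 8.33) and 9.82 CPM (9.36 to 10.3). The region shared by Hoxc5, the proximal start of Hoxc6 and Mir615 had the highest level of the cluster in each library, at 32.99 CPM (31.2 to 34.9), 35.1 CPM (33.9 to 36.2) and 43.2 CPM (42.2 to 44.2). For both regions the E12.5 and E14.5 intervals overlapped and the E16.5 interval lay above them. In density this was not so: Hoxc8 had 5.33, 8.99 and 4.12 CPM per kb and the shared region 4.95, 7.76 and 6.19 CPM per kb. The shared region was 1 peak in the E12.5 and E16.5 libraries and 3 peaks in the E14.5 library. Hoxc6 and Hoxc5 could therefore be told apart only there, at 8.64 and 23.4 CPM. The distal start area of Hoxc6 held 24.5 CPM (22.95 to 26.1), 22.2 CPM (21.3 to 23.1) and 37.5 CPM (36.6 to 38.5), or 5.56, 7.47 and 6.73 CPM per kb. Its log2 ratio for E16.5 over E12.5 was 0.61, and 0.28 per kb of called width. The proximal promoter region of Hoxc4, the most anterior gene, held 15.1, 14.02 and 18.7 CPM, or 4.96, 7.17 and 4.79 CPM per kb. A place in the long Hoxc4 intron held 4.80 CPM (4.13 to 5.54), 3.79 CPM (3.44 to 4.16) and 10.3 CPM (9.82 to 10.8), or 2.75, 4.66 and 4.82 CPM per kb. It was the 1 common HoxC region at least 2-fold higher at E16.5 than at E12.5, with a log2 ratio of 1.102 (0.88 to 1.33), and of 0.81 per kb of called width.

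**Figure D3:**
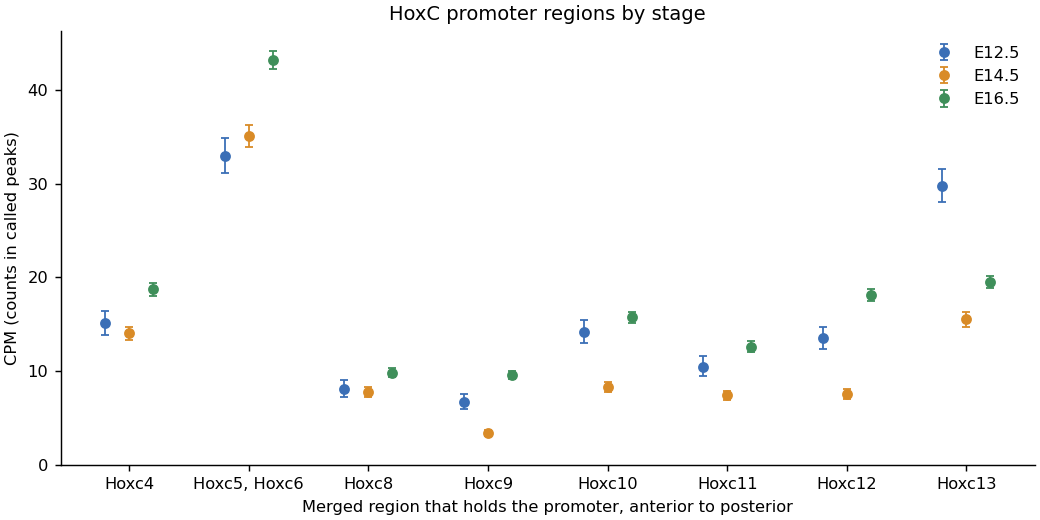
Levels (CPM, y axis) of the 8 merged regions that hold HoxC promoters, 1 point per library with its 95% counting interval. Hoxc5 and the proximal start of Hoxc6 share a region. In these counts, which are not divided by called width, the E14.5 point is the lowest in every region but the shared one, though at Hoxc8 and Hoxc4 its interval overlaps that of E12.5, and Hoxc13 alone is highest in the E12.5 library.

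By the counts of whole peaks at promoters, HoxC genes lay between the 5.13 and 56.7 percentile of called promoters in the E12.5 library, the 0.75 and 25 percentile in the E14.5 library and the 15.04 and 73.3 percentile in the E16.5 library. On these whole peaks the median HoxC log2 ratio was -0.94 for E14.5 over E12.5 (all promoters 0.26) and 0.93 for E16.5 over E14.5 (all promoters -0.27). It was 0.39 for E16.5 over E12.5 (all promoters 0.00). Past 2-fold were 3 of the 9 for the first ratio (background 3.43%), 4 for the second (background 4.17%) and 1, Hoxc12, for the third (background 6.86%). The 3 at E14.5 were Hoxc6, Hoxc9 and Hoxc11, whose called widths were narrower there. Within 500 bp of the start, with counts shared out by length, 0 of the 9 passed 2-fold for E14.5 over E12.5 (background 7.42%) and 0 for E16.5 over E12.5 (background 5.92%). For E16.5 over E14.5, 2 passed it (background 15.6%), Hoxc12 at 1.05 and Hoxc8, lower, at -1.05. For E16.5 over E12.5 Hoxc12 stood at 0.83 there, against 2.68 on whole peaks, whose called width went from 1021 to 6136 bp. Of 27 other Hox genes with both stage ratios, the nearest to Hoxc6 were Hoxd3, Hoxa2 and Hoxa11, at distances of 0.92, 0.93 and 1.12 log2 units over 3 libraries. These are ratios of whole peaks, and the Hoxc6 peak also held Hoxc5 in the E12.5 and E16.5 libraries. Within 500 bp of the start the ratios were -0.07 and 0.72 for Hoxc6, 0.17 and 0.40 for Hoxa2, 0.71 and -0.84 for Hoxd3 and 0.56 and -0.89 for Hoxa11. There Hoxa2 alone of the 3 shared a sign with Hoxc6, in the second ratio.

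The other Hox clusters were divided differently. Posterior counts per kb of interval were below anterior ones in HoxC, at ratios of 0.87, 0.51 and 0.67, and in HoxB, at 0.58, 0.44 and 0.45. They were above them in HoxA, at 1.66, 2.33 and 1.66, and in HoxD, at 2.02, 3.21 and 2.09. With called width as the measure of length the ratios were 0.96, 0.95 and 0.76 in HoxC, 1.02, 1.15 and 1.01 in HoxB, 1.17, 1.14 and 1.14 in HoxA and 1.23, 1.23 and 1.24 in HoxD. By that measure HoxB lay above 1, and HoxC alone lay below it, narrowly so in the first 2 libraries. Over only the positions called in every library, posterior HoxC was denser than anterior HoxC at E12.5, at 6.47 against 5.42 CPM per kb. It was less dense at E14.5 (7.02 against 7.36) and at E16.5 (5.21 against 5.73). The posterior values include the Hoxc13 promoter peak, which had 14.01, 8.39 and 8.28 CPM per kb. Densities over these positions without that peak were not computed, so the E12.5 order may rest on it. The posterior share was lower at E14.5 than at E12.5 in HoxC, and in HoxB at 30.6% against 36.5%. It was higher at E14.5 in HoxA, at 61.3% against 52.9%, and in HoxD, at 65.1% against 54.01%. In the E16.5 library it was 30.7% in HoxB, 52.97% in HoxA and 54.9% in HoxD. Counted per kb of called width the shares were 53.8%, 53.3% and 53.2% in HoxA, 55.1%, 55.2% and 55.3% in HoxD and 50.5%, 53.5% and 50.2% in HoxB, so the rises in HoxA and HoxD were gone and HoxB was higher at E14.5. Called width moved with the shares: in HoxC the posterior part was called over 40.2%, 12.95% and 51.8% of its length and the anterior part over 44.4%, 24.3% and 58.8%. In HoxD the called part was 89.4%, 61.4% and 88.2% for the posterior and 54.2%, 23.6% and 52.04% for the anterior genes. HoxC as a whole held 223, 150 and 278 CPM and HoxB 219.9, 144.6 and 293 CPM. HoxA held 532, 539 and 486 CPM and HoxD 440, 390 and 375 CPM. These are totals over intervals of unlike length. Per kb of interval, the anterior part held 2.05, 1.79 and 2.93 CPM in HoxC and 1.58, 1.14 and 2.30 CPM in HoxB. The posterior part held 1.79, 0.91 and 1.97 CPM in HoxC and 0.92, 0.50 and 1.03 CPM in HoxB.

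**Figure D4:**
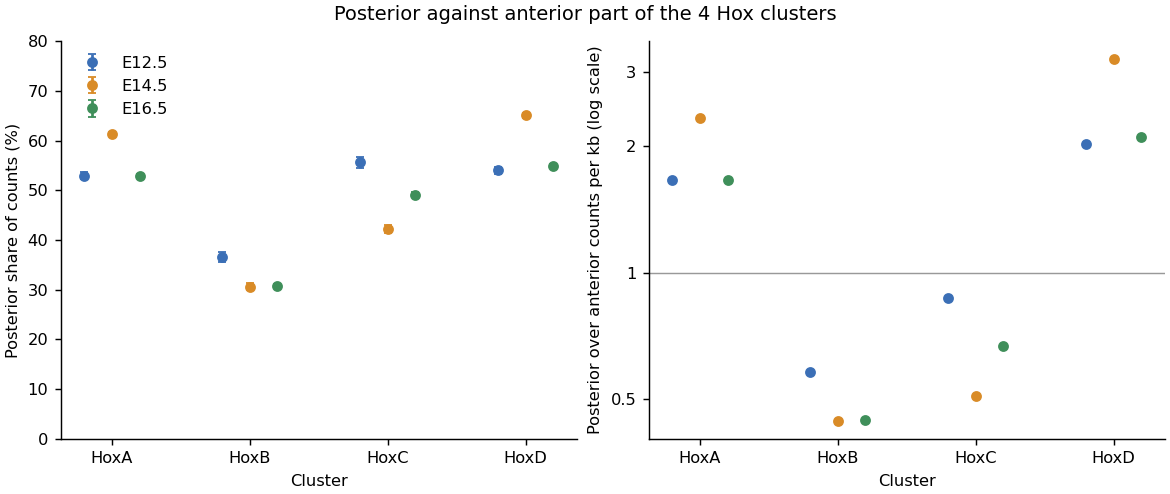
Posterior share of counts (%, left) with 95% counting intervals, and ratio of posterior to anterior counts per kb of interval (right, log axis), for the 4 Hox clusters, 1 point per library. On this scale HoxA and HoxD lie above a ratio of 1 and HoxB and HoxC below it in each library.

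Nuclei were compared one by one after thinning each to 1309 fragments (a fragment being 2 cut sites), with 2073, 502 and 214 shallower nuclei left out. An anterior HoxC fragment was seen in 7.62% of nuclei (6.97% to 8.31%), 9.84% (9.42% to 10.3%) and 12.6% (12.04% to 13.2%). A posterior one was seen in 9.64% (8.92% to 10.4%), 7.48% (7.12% to 7.86%) and 12.4% (11.9% to 12.96%). The anterior percentage was higher at E14.5 than at E12.5, with intervals apart. That is opposite in direction to the anterior CPM (log2 -0.20), though not to CPM per kb of called width (0.67). Posterior fragments were the more frequent in the E12.5 library and anterior ones in the E14.5 library, and in the E16.5 library the intervals overlapped. Over regions with a peak in every library the E12.5 intervals overlapped instead (8.24% to 9.72% and 9.67% to 11.3%), and in the E16.5 library anterior fragments were the more frequent (14.2% to 15.4% against 12.6% to 13.8%). Over these regions the anterior interval of E14.5 (9.36% to 10.2%) overlapped that of E12.5. Without thinning the anterior shares were 21.7%, 29.4% and 62.6% and the posterior shares 26.3%, 24.97% and 64.3%. Fragments of both parts were seen in 0.93%, 1.08% and 2.10% of thinned nuclei. Among nuclei with an anterior fragment, a posterior one was seen in 12.2% (9.42% to 15.5%), 10.99% (9.62% to 12.5%) and 16.6% (14.9% to 18.5%). Among the other nuclei it was seen in 9.43% (8.69% to 10.2%), 7.10% (6.73% to 7.49%) and 11.8% (11.2% to 12.4%). Anterior and posterior fragments could thus occur in the same barcode. The intervals of the 2 sets of nuclei lay apart in the E14.5 and E16.5 libraries and overlapped in the E12.5 library. Over regions with a peak in every library they lay apart at E12.5 as well, at 18.3% (15.07% to 21.9%) against 9.67% (8.89% to 10.5%). No doublet caller was run, so a barcode may hold more than 1 nucleus.

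Last, nuclei with at least 1309 fragments were ranked by the share of fragments at 4 panels of lineage loci, and the upper 10% of each ranking was set beside all. Such a gate is a range of a score and not a cell type, and 129 to 540 nuclei lay within 5% of its limit. In the dermal fibrogenic gate (Col7a1, Rspo1, Irx1, Irx2, En1, Lef1) anterior HoxC fragments came to 97.4 (86.2 to 109.7), 123 (115 to 131) and 193 (187 to 200.1) per 1000000 fragments. All nuclei had 85.6 (82.8 to 88.4), 84.3 (82.6 to 86.1) and 113 (111 to 114). The gate lay above all nuclei beyond counting error in the E14.5 and E16.5 libraries, and the intervals overlapped at E12.5. Its posterior fragments came to 91.7 (80.8 to 104), 77.96 (71.95 to 84.3) and 169 (163 to 175), against 109 (106 to 113), 63.8 (62.3 to 65.3) and 111 (109 to 112). Its posterior share was 48.5% (44.1% to 52.8%), 38.8% (36.4% to 41.3%) and 46.7% (45.4% to 47.9%), against 56.1%, 43.1% and 49.5% in all nuclei. At E12.5 that gap was gone in the upper 20%, where the share was 56.2%. The chondrogenic gate (Sox9, Acan, Col2a1, Col9a1, Matn1, Chad) had a posterior share of 54.98% (50.5% to 59.4%), 44.3% (41.6% to 47.02%) and 56.1% (54.4% to 57.9%), above all nuclei beyond counting error in the E16.5 library only. That last value was 52.9% in the upper 20%. In the E16.5 library this gate had 112 posterior fragments (107 to 117) per 1000000, with an interval that overlapped that of all nuclei. Its anterior fragments came to 87.5 (82.9 to 92.3), below all nuclei, so the higher share went with fewer anterior fragments. The tenogenic gate (Tnmd, Thbs4, Kera, Mkx, Fmod, Scx) had shares of 57.2%, 43.8% and 53.1% (51.2% to 54.9%). The fibrogenic gate (Postn, Cd34, Dpt, Mfap5, Clec3b, Pdpn) had 53.6%, 43.6% and 47.1% (45.3% to 48.8%). Beyond counting error both differed from all nuclei in the E16.5 library only. For the fibrogenic gate this held at the upper 10% alone. In that library its upper 5% and 20% had 47.7% (44.9% to 50.6%) and 48.6% (47.5% to 49.7%), overlapping all nuclei (49.0% to 49.9%). The tenogenic share stayed above all nuclei in both, at 53.8% and 51.5%. There the tenogenic gate had 91.8 anterior fragments (87.0 to 96.8) per 1000000, below all nuclei. Its posterior fragments came to 103.7 (98.6 to 109.0), narrowly below, so its higher share went with fewer fragments of both parts. The fibrogenic gate had 95.6 posterior fragments (90.8 to 100.5) there, below all nuclei, and an overlapping anterior interval. There the gated nuclei had medians of 9135 to 10768 fragments, against 13939 in all nuclei, and 34.96% to 40.09% of fragments in promoter peaks, against 35.9%. The part of depth in these values was not tested.

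**Figure D5:**
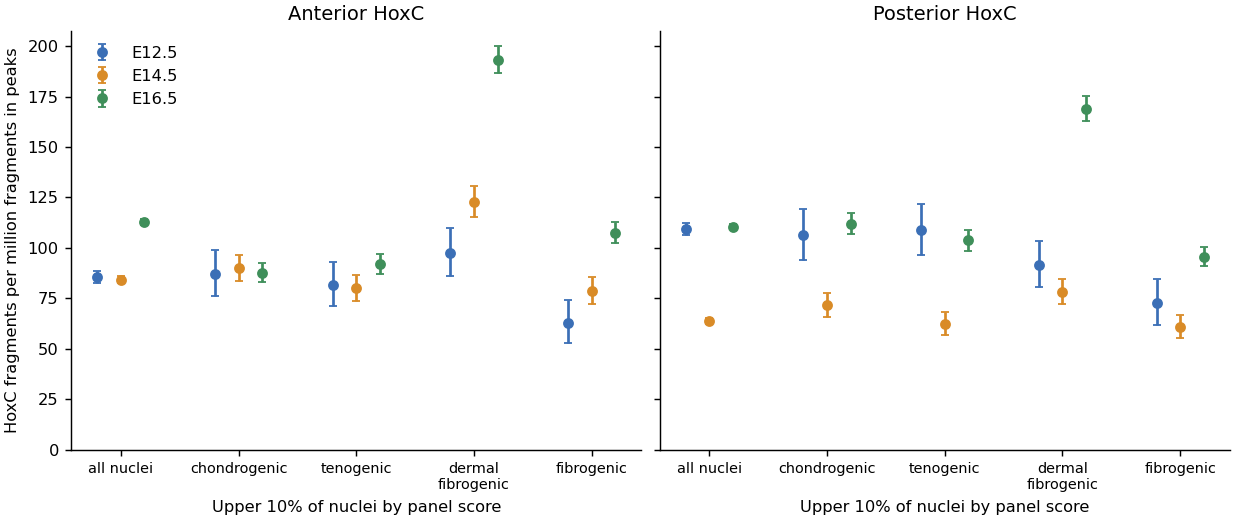
HoxC fragments per 1000000 fragments (y axis) of the anterior (left) and posterior (right) part, in all nuclei and in the upper 10% by each panel score, 1 point per library with 95% counting intervals. The dermal fibrogenic gate of the E16.5 library is the highest point of both panels, at 193 and 169.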

How the data were processed

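Single-nucleus ATAC-seq had been made from 3 libraries of sorted forelimb MPs, 1 per stage. The authors had aligned reads to mm10 and called peaks per library with Cell Ranger ATAC (1.1.0 per the labels). The matrix headers name software 1.0.1 for the 2 earlier libraries and 1.2.0 for E16.5. The deposited values are counts, unnormalised cut sites per peak and nucleus, of which 89.5% to 94.1% were even. Intervals were computed on fragment equivalents (cut sites divided by 2, rounded up), as exact Poisson intervals for sums and Clopper-Pearson intervals for shares, centred on the value from cut sites. All 42365 deposited nuclei were used, and no doublet caller was run.

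Peaks overlapping by 1 bp were merged across libraries, and counts were scaled to 1000000 in autosomal regions with a peak in every library. Promoters were 1000 bp upstream to 100 bp downstream of a start in the basic GENCODE annotation of GRCm38. Starts were those of protein-coding transcripts, limited to those tagged CCDS where a gene had any. Each HoxC gene had 1 such window, so the distal starts of Hoxc6 and Hoxc4 were not counted as promoters. Sums along the cluster spread a peak's counts evenly over its length. Python 3.11.15, pandas 2.3.3, scipy 1.17.1 and pysam 0.24.0 were used, and the computation was tested on simulated data. The 9 genes, the lists and the comparisons were chosen with earlier results of these data known. Genes were named by rule: the 9 members, Hotair, 4 flanking genes, and other Hox genes with the 3 nearest to Hoxc6, with a change named past 2-fold. A list of cofactor genes and 1 marker list are not reported here. Another 24 settings were tried as planned, and 7 were added after the values had been seen.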

Additional observations from a re-analysis of the deposited data

How the results depend on the processing

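No paired analysis was possible because each stage had 1 library and no test was run. Depth differed between all 3 libraries. Software and dissection set E16.5 apart from the 2 earlier libraries, and digestion set E12.5 apart from the later ones. E14.5 had the fewest called bases, so a ratio between stages holds both signal and called width. The deposited lists carry no peak scores, so no stricter threshold was tried. Where a value moved, the cause was not tested.

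Per kb of called width, the anterior log2 ratios of E14.5 over E12.5, E16.5 over E14.5 and E16.5 over E12.5 were 0.67, -0.56 and 0.11, and the posterior ones 0.66, -0.89 and -0.23. The common regions past 2-fold then numbered 2, 2 and 0, in the opposite directions: 2 higher for E14.5 over E12.5 and 2 lower for E16.5 over E14.5. Over positions called in every library, added after the values had been seen, the anterior ratios were 0.44, -0.36 and 0.081, the posterior ones 0.12, -0.43 and -0.31, and the posterior share 47.8% at E12.5 and 41.1% at E16.5. In HoxC these positions were the E14.5 calls. Over regions with a peak in every library, also added, the anterior ratios were -0.13 and 0.62 for the first pair, and the posterior share was 53.8% and 46.97% at E12.5 and E16.5. The same regions, planned for the nuclei, gave thinned anterior percentages of 8.96% and 14.8% at those stages and posterior ones of 10.4%, 7.88% and 13.2%, so that the E12.5 intervals overlapped and the E16.5 ones did not.

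Scaling by all counts gave anterior ratios of -0.022, 0.46 and 0.43. Scaling by median ratio gave -0.35 and 0.86 for the first pair, with 5 HoxC promoters past 2-fold for E14.5 over E12.5. Scaling by flanking genes gave 0.81 and 0.64 for the ratios of E16.5. Binarised counts gave -0.13 and 0.61, with posterior shares of 57.8%, 44.3% and 53.1%. Posterior ratios kept their signs under these scalings and filters. Without the deepest 5% of nuclei the anterior ratios over E12.5 were -0.10 and 0.65. Dividing between Hoxc9 and Hoxc10 gave posterior shares of 43.4%, 30.7% and 36.7%, and leaving out the Hoxc13 promoter region (added) 48.8%, 35.6% and 45.3%. Per kb of called width (added) it was 49.01%, 48.8% and 43.2%, so the drop from E12.5 to E14.5 was gone. It stayed lower at E14.5 under the other 8 settings. Dividing the other clusters between groups 9 and 10 gave posterior shares of 38.5%, 43.2% and 36.4% in HoxA. They were 25.5%, 17.5% and 20.7% in HoxB and 41.97%, 53.8% and 44.8% in HoxD. The directions from E12.5 to E14.5 stayed as with the main division.

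By called width the 5% point lay at 109.6 kb at E12.5 and 109.8 kb at E16.5. At E16.5 the 1% point lay at 116.3 kb and the 10% point at 101.8 kb. Within 500 bp of a start, 0, 2 and 0 HoxC promoters passed 2-fold for the 3 ratios. There the ratios of Hoxc5 were 0.75 and -0.42, those of Hoxc10 0.76 and -0.71, that of Hoxc13 for E16.5 over E14.5 -0.021, and those of Hoxc8 over E14.5 and E12.5 -1.05 and -0.60. With promoters at least 50% covered by a peak, 0, 0 and 0 passed 2-fold. Only 2, 2 and 5 of the 9 then had a value, and Hoxc12, the 1 gene past 2-fold for E16.5 over E12.5, had none. Without thinning, anterior fragments were seen in 21.7%, 29.4% and 62.6% of nuclei and posterior ones in 26.3%, 24.97% and 64.3%.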
